A study of Mus musculus with 24 samples.

Results

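The genes described here are 34 genes that mark microglia, the resident macrophages of the brain. They were taken by symbol from a fixed list, and all 34 were present among the 24062 genes of the deposited count table. All 34 also passed the filter on low counts that left 16313 genes for testing. The study measured RNA from micro-dissected hippocampus of C57BL/6 mice in 24 sequencing libraries, and asked how the loss of the interleukin-1 receptor IL-1R1 from neurons alters the effect of a social defeat stress imposed by paired fighting. The 4 groups were wild-type control mice (n = 7), wild-type mice under stress (n = 6), IL-1R1 knockout control mice (n = 6) and IL-1R1 knockout mice under stress (n = 5). Here and below, n counts libraries. The labels call the genotype an IL-1R1 knockout and the series' design names it nIL-1R1. They give no promoter or Cre driver, no age and no sex. Nothing in them ties a library to an animal of its own, and p-values therefore measure only the spread between these libraries, which may be technical.

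Microglia depend on signalling through the colony stimulating factor receptor Csf1r, whose ligands Csf1 and Il34 come from other brain cells. The transcription factor PU.1, encoded by Spi1, works with Irf8 and Sall1 to set their gene programme. At rest microglia survey the tissue with fine processes, guided by purine receptors such as P2ry12 and by Cx3cr1, the receptor for the neuronal chemokine Cx3cl1. When activated they typically lower such surveillance receptors and raise Fc receptors, ITAM adaptors and lysosomal proteases. In the hippocampus they also take part in pruning of synapses and in the response to stress hormones and cytokines.

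Upstream sequences are shown for 5 genes to which the stress comparisons below return: the purine receptor P2ry13, the integrin Itgam, the Fc receptor Fcgr3, the protease Ctss and the tetraspanin Cd53. Each is the 150 bases just before the RefSeq start site on GRCm38.p6, written 5′ to 3′ on the strand of the gene, and capitals mark the letters GAGGAA or their reverse complement, the core bound by PU.1.
P2ry13, chr3:59210883-59211032, minus strand: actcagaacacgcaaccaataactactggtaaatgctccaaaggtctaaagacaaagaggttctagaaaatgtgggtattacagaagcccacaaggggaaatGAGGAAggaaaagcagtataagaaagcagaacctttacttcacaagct
Itgam, chr7:128062490-128062639, plus strand: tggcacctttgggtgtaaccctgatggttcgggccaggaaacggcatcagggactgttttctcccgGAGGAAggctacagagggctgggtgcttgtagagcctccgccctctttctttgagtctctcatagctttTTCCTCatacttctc
Fcgr3, chr1:171059404-171059553, minus strand: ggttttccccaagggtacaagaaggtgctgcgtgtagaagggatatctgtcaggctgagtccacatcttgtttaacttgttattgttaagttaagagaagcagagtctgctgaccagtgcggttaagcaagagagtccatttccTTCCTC
Ctss, chr3:95526636-95526785, plus strand: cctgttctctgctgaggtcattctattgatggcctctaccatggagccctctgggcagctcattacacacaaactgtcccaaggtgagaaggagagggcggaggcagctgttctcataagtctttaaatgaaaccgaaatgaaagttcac
Cd53, chr3:106790150-106790299, minus strand: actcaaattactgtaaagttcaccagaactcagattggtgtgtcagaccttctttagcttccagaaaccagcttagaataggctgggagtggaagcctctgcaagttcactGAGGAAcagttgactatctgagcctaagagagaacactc

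RefSeq entries matched 27 of the 34 genes, with 35 start sites in all. Within 250 bases before the start, GAGGAA on either strand was present in 16 of the 35 windows (45.7%), against 7639 of 32851 windows over all genes (23.3%). Some genes have several windows, and 2 overlapping windows of Fcgr3 hold the same match, so the windows are not independent. The ETS and IRF composite element, searched on both strands as GGAA followed 2 bases later by GAAA and able to overlap GAGGAA, was present in 0 of the 35 windows and in 756 of all windows (2.3%). The Ctss stretch holds no GAGGAA in the 150 bases shown, although its 250 bases do. These matches describe letters only and do not show binding.

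Depth was 25711872 to 35148198 counts per library, which put 3 reads at 0.0854 to 0.117 CPM (counts scaled to a common library total). The libraries fell into 2 classes by Rn45s, the ribosomal RNA precursor. In 11 libraries (class 1) it stood at 24238 to 50453 CPM and in 13 libraries (class 2) at 4107 to 8786 CPM. Class 1 held the low replicate numbers of every group (3 wild-type control, 2 wild-type stress, 4 knockout control and 2 knockout stress libraries), and class 2 held the higher numbers (4, 4, 2 and 3). The labels do not name this split or say what separates the classes, so it is used only as a split found in the counts. Il1r1 did not separate the genotypes. Its level was 3.35 ± 1.31 CPM (SD, n = 7) in wild-type controls and 3.44 ± 1.21 CPM (SD, n = 6) in knockout controls. It was 5.56 ± 1.45 CPM (SD, n = 6) in wild-type stress and 5.54 ± 1.77 CPM (SD, n = 5) in knockout stress libraries. The targeted gene therefore does not check the genotype labels, and knockout stands for the libraries labelled so throughout. Markers of hippocampal neurons were present in every library at 555 to 1047 CPM in sum. The thalamic factor Tcf7l2 was highest in wild-type stress replicate 5 and knockout stress replicates 3 and 5, at 86.9 to 109 CPM. It was at 26.3 to 60.7 CPM in the class 1 libraries and at 5.66 to 16.7 CPM in the other class 2 libraries. Those 3 are called the libraries with the most thalamic transcripts, and results are given without them where that changed a call.

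Per kilobase of exon, the microglial genes spanned a wide range in wild-type control hippocampus. Lgmn, a lysosomal legumain protease, led with 54.1 ± 3.79 CPM per kb (SD, n = 7). Ctss, the endosomal protease cathepsin S, followed with 37.1 ± 5.28, and Laptm5, a lysosomal membrane protein, with 27.8 ± 4.98 CPM per kb. Lgmn and Ctss did not overlap between libraries, whereas Ctss and Laptm5 did. The next levels were close to each other. Selplg, the P-selectin ligand, stood at 21.9 ± 2.50, Tyrobp, the adaptor DAP12, at 21.3 ± 5.05, and Csf1r at 18.8 ± 1.68 CPM per kb, differences within the spread of the libraries. Among the homeostatic receptors, Tmem119 was at 13.7 ± 1.66, Cx3cr1 at 9.40 ± 1.77 and P2ry12 at 8.64 ± 2.59 CPM per kb. The lowest members were Cd33, a sialic acid receptor, at 0.383 ± 0.116 and Ptprc, which encodes the leukocyte antigen CD45, at 0.343 ± 0.0495 CPM per kb. No member was at or under 3 reads in any library.

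Some members share sequence space with other genes, and the sources used here do not say whether the counting used strand. P2ry12 (chr3:59216272-59262871) and P2ry13 (chr3:59207892-59210882) both lie on the minus strand of mm10 inside the plus-strand gene Med12l. Gpr34 lies inside Cask on the opposite strand. No annotated exon of P2ry12, P2ry13 or Gpr34 overlaps an exon of another gene. Exons of Itgam overlap Gm49368, exons of Csf1r overlap Hmgxb3 and exons of Ltc4s overlap Gm26542. Exons of Cx3cr1 overlap Gm33858 and exons of Slco2b1 overlap Gm15635 and Gm34280. The levels of these members can include reads of those genes. Fcgr3 (chr1:171051174-171064935) and Ctss (chr3:95526786-95556403) overlap no other coding gene.

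Most microglial genes were higher in class 2 libraries than in class 1 libraries. Relative to class 1, and with the 4 groups held apart in the fit, 24 of the 34 members were higher in class 2 and 0 were lower, against 11.2% of all genes tested that were higher and 9.56% that were lower (edgeR quasi-likelihood test, Benjamini-Hochberg adjusted p under 0.05). The median difference was 0.41 on the log2 scale over the members and 7.75e-05 over all genes, and 32 of 34 members (94.1%) lay above 0, against 8157 of 16313 genes tested. The count was 25 by DESeq2 (11.8% of all genes higher), 26 by limma voom (14.9%), and 21 to 25 when single libraries were left out. Without the 3 libraries with the most thalamic transcripts it was 27. With the replicate number as a block it was 0, and the median was 0.25 in place of 0.41. In bulk tissue, fewer cells of a type and less RNA per cell cannot be told apart, here and in every comparison that follows.

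**Figure D1:**
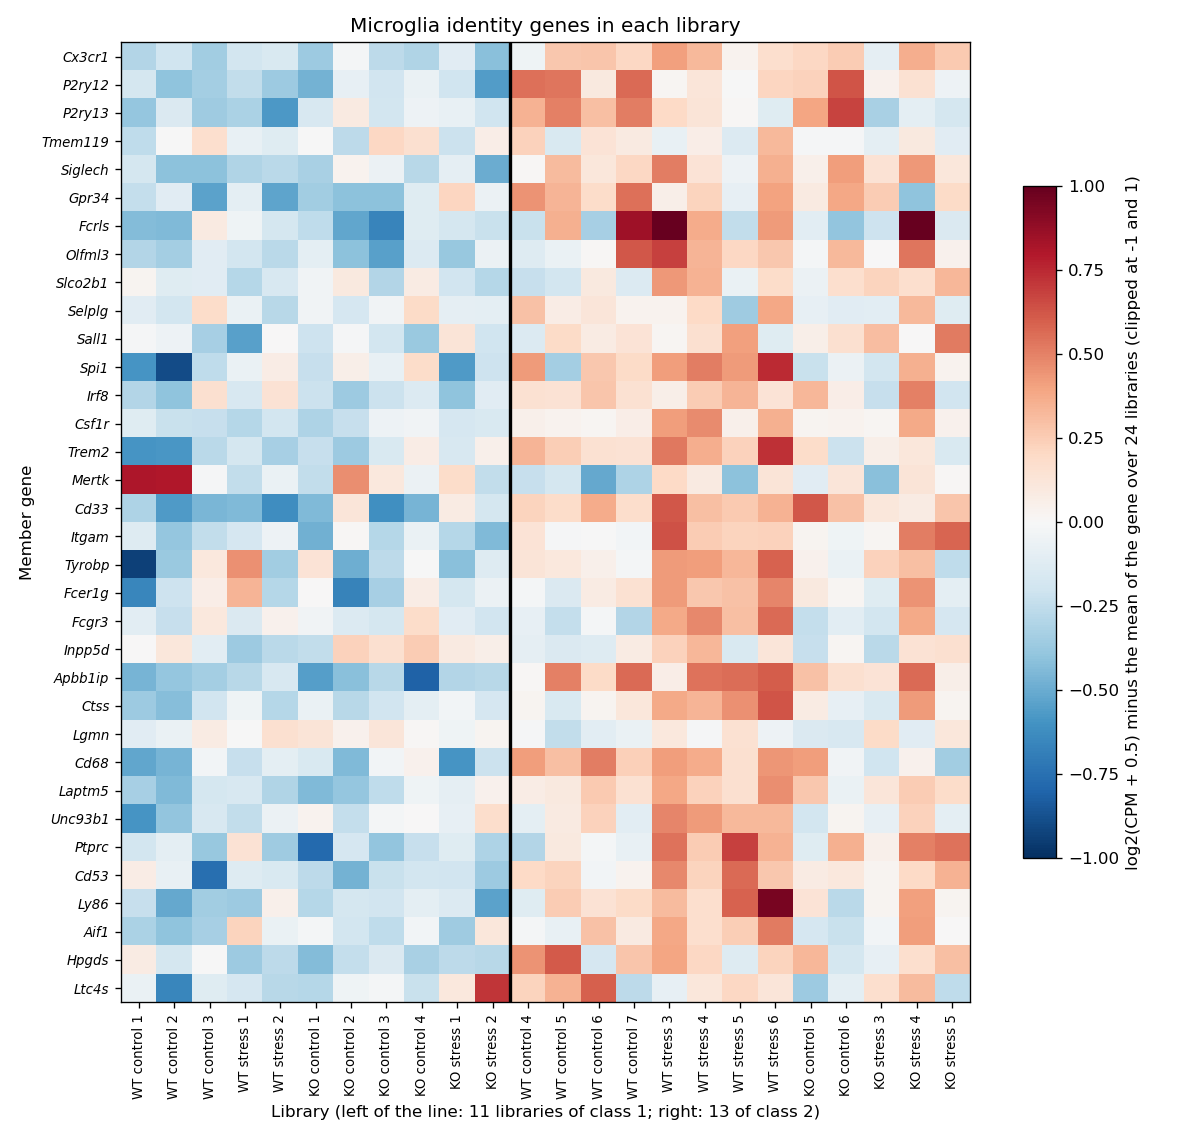
Each microglial gene (1 line per gene, grouped by role) in each library (1 column per library), coloured by log2(CPM + 0.5) minus the mean of the gene, limited to the range from -1 to 1. The 11 class 1 libraries on the left are mostly below the mean of each gene and the 13 class 2 libraries on the right mostly above it.

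Of the 10 homeostatic surface and secreted genes, 7 were higher in class 2. P2ry12, the ADP receptor that guides microglial processes, stood at 12.5, 15.6 and 17.8 CPM (lowest, median and highest of 11 class 1 libraries) and at 17.9, 20.8 and 29.1 CPM in the 13 class 2 libraries. The classes did not overlap, although they met at 17.8 and 17.9 CPM. The difference was 0.58 ± 0.077 on the log2 scale (SE), with an adjusted p of 1.37e-05. Siglech, a sialic acid binding lectin, ran from 7.33 over 8.62 to 10.8 CPM in class 1 and from 10.1 over 11.7 to 15.2 CPM in class 2, an overlap at the edge only. It was 1.42-fold higher, at 0.51 ± 0.081 on the log2 scale (adjusted p = 9.84e-05). Cx3cr1 was at 31.4, 35.1 and 41.7 CPM in class 1 and at 39.7, 50.4 and 56.2 CPM in class 2 (0.45 on the log2 scale, adjusted p = 1.66e-05). P2ry13 (0.50), the secreted Olfml3 (0.48), the lysophospholipid receptor Gpr34 (0.47) and the transporter Slco2b1 (0.22) made up the rest of the 7.

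Tmem119, a microglial membrane protein used to tell these cells from blood macrophages, was not called. Its level was 24.8, 29.7 and 34.6 CPM in class 1 and 26.8, 29.7 and 37.6 CPM in class 2, so the medians were equal and the ranges overlapped almost fully (0.07 ± 0.070 on the log2 scale, adjusted p = 0.560). Selplg (0.12, adjusted p = 0.293) and the Fc receptor-like Fcrls (0.52 ± 0.21, adjusted p = 0.0772) also missed the threshold.

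All 3 transcription factors were higher in class 2. The difference was 0.46 on the log2 scale for Spi1, 0.35 for Irf8, which acts with PU.1, and 0.30 for Sall1, a zinc finger factor that marks microglia among macrophages. Of the 5 survival and phagocytic receptors, 4 were higher. Cd33 had the largest difference of the members, with 1.36, 1.60 and 2.61 CPM in class 1 and 2.52, 2.96 and 3.90 CPM in class 2, with the lowest class 2 library just inside the class 1 range. The difference was 0.80 ± 0.13 on the log2 scale or 1.74-fold (adjusted p = 1.25e-04). Csf1r was at 76.9, 84.1 and 93.2 CPM in class 1 and at 96.7, 98.9 and 132 CPM in class 2, without overlap (0.32 ± 0.059, adjusted p = 4.81e-04). The lipid sensor Trem2 (0.45) and the complement receptor Itgam (0.41) completed the 4. Mertk, which binds Gas6 and Pros1 on dying cells, was at -0.28 ± 0.14 (adjusted p = 0.170). Its 2 highest libraries were wild-type control replicates 1 and 2, at 29.8 and 29.7 CPM, where the other libraries ran from 11.6 to 23.4 CPM.

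Among ITAM adaptors, the Fc receptor and signalling genes, 2 of 5 were higher in class 2. Apbb1ip, which links Rap1 to integrins, ran from 2.36 over 3.46 to 3.98 CPM in class 1 and from 4.56 over 5.63 to 7.10 CPM in class 2, with no overlap. It was 1.69-fold higher (0.76 ± 0.10 on the log2 scale, adjusted p = 1.52e-05). Tyrobp was also higher (0.33). The other 3 did not pass, with the Fc receptor gamma chain Fcer1g at 0.28 (adjusted p = 0.0615), Fcgr3 at 0.10 (adjusted p = 0.486) and the lipid phosphatase Inpp5d at 0.02 (adjusted p = 0.901).

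Of the 5 lysosomal and endosomal genes, 4 were higher in class 2. They were the macrophage glycoprotein Cd68 (0.50), Laptm5 (0.41), Ctss (0.33) and Unc93b1 (0.24), which carries Toll-like receptors to endosomes. Lgmn, the member with the highest level per length, was at 106, 117 and 128 CPM in class 1 and 96.6, 111 and 131 CPM in class 2, so its ranges overlapped (-0.07, adjusted p = 0.334). Of the 4 leukocyte surface and cytoskeletal genes, 3 were higher. Ptprc was at 0.936, 1.60 and 2.23 CPM in class 1 and 1.51, 2.44 and 3.47 CPM in class 2, with overlap (0.53 ± 0.14 on the log2 scale, 1.45-fold, adjusted p = 0.0081). The lipopolysaccharide co-receptor Ly86 (0.48) and Cd53 (0.45) were the others, and Aif1, the calcium-binding protein Iba1, was at 0.25 (adjusted p = 0.0624). Of the enzymes of eicosanoid synthesis, the prostaglandin D synthase Hpgds was higher (0.44) and the leukotriene C4 synthase Ltc4s was not called (0.14, adjusted p = 0.499). Of all members, only P2ry12, Csf1r and Apbb1ip had class ranges of CPM that did not overlap, all higher in class 2, where 0.374% of all genes were higher and 0.325% lower without overlap.

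Summed over the members, the level was 624 to 709 CPM in class 1 and 737 to 915 CPM in class 2, so each class 2 library exceeded each class 1 library. Other measures moved with the class as well. The nuclear RNA Malat1 was at 1050 to 1881 CPM in class 1 and 408 to 806 CPM in class 2, and Lars2 at 1508 to 2518 against 480 to 968 CPM. Of 8 markers of hippocampal neurons, 6 were higher in class 2 and 1 was lower, against 11.2% and 9.56% of all genes. Their summed levels were 555 to 660 and 573 to 1047 CPM. Of 15 monocyte and neutrophil markers, 11 could be tested and 8 were higher, against 11.2% of all genes. Levels summed over all 15 were 26.8 to 33.8 and 25.1 to 101 CPM. In controls alone these sums were 26.8 to 30.1 CPM in class 1 and 25.1 to 28.2 CPM in class 2. Under stress they were 28.6 to 33.8 and 43.6 to 101 CPM, so the higher sums in class 2 were those of stress libraries. Perivascular macrophage markers were at 23.5 to 30.7 and 20.4 to 33.2 CPM in sum, with 0 of 8 higher and Cd163, a haemoglobin scavenger receptor, lower at -0.65. Thalamus markers were at 111 to 421 CPM in sum (median 312) in class 1 and 79.4 to 620 CPM (median 95.1) in class 2. Of these 6 markers 0 were called by edgeR, with a median difference of -0.55 on the log2 scale, and DESeq2 called Tcf7l2 lower in class 2 (-1.33, adjusted p = 0.0342). Choroid plexus markers were at 22.4 to 1877 and 23.5 to 2526 CPM in sum, with 0 of 8 called. The part of any of these in the difference between the classes was not tested.

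**Figure D2:**
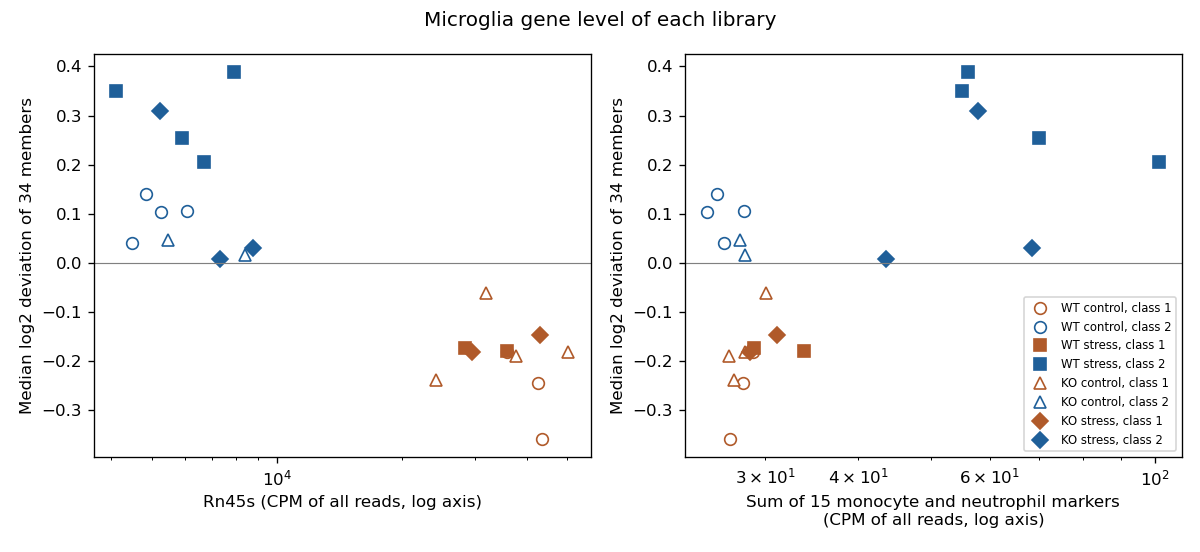
Median over the 34 microglial genes of the log2 difference from the mean of each gene (vertical axis), 1 point per library, against Rn45s (left, CPM, log axis), which defined the classes, and against the summed monocyte and neutrophil markers (right, CPM, log axis), with shapes for the groups and colours for the classes. Class 1 libraries lie between -0.36 and -0.061 and class 2 libraries between 0.0085 and 0.39, and the 7 class 2 stress libraries have higher marker sums than the 6 class 2 controls.

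Stress in wild-type mice was compared over 7 control and 6 stress libraries, of which 3 and 2 were of class 1. No microglial gene passed the adjusted threshold, with 0 of 34 called by edgeR, DESeq2 or limma voom, where 0.135% of all genes were higher by edgeR. At an unadjusted p under 0.05, 10 members were higher and 0 were lower, against 2.97% of all genes higher and 1.44% lower. The median log2 fold change was 0.19 over the members and -0.0013 over all genes, with 26 of 34 members (76.5%) above 0, against 49.5% of all genes. By role, and with no test between roles, the values lay as follows. All 5 ITAM and signalling genes (median 0.38), all 5 lysosomal genes (0.19) and all 4 leukocyte surface genes (0.40) had fold changes above 0, whereas the homeostatic genes were evenly placed, with 5 of 10 above 0 and a median of 0.04. The 3 transcription factors had a median of 0.10, the 5 receptors of 0.22 and the 2 eicosanoid enzymes of -0.11.

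Fcgr3, which binds antibody complexes, gave the lowest p of the members. It stood at 10.1, 11.5 and 13.4 CPM (lowest, median and highest) in controls and at 11.1, 15.9 and 18.6 CPM under stress. The 4 highest stress libraries lay above all controls and the other 2 lay within them (0.42 ± 0.12 on the log2 scale, SE, adjusted p = 0.266). Ctss, the protease that trims the class II invariant chain, showed a like layout. It was at 40.7, 49.4 and 59.4 CPM in controls and 45.0, 70.7 and 85.3 CPM under stress, and again 2 stress libraries lay among the controls (0.41 ± 0.12, adjusted p = 0.446). Over the fits that left out single libraries the adjusted p ran from 0.0720 to 0.663 for Fcgr3 and from 0.117 to 0.955 for Ctss.

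The adaptor Tyrobp was at 6.49, 13.3 and 14.1 CPM in controls and 9.99, 17.4 and 19.6 CPM under stress (0.45 ± 0.17, adjusted p = 0.861). The Fc receptor gamma chain Fcer1g was at 5.92, 9.45 and 10.7 CPM and 7.78, 12.1 and 13.7 CPM (0.38 ± 0.15, adjusted p = 0.988). Both pairs of ranges overlapped. Unc93b1 was at 13.4, 18.8 and 23.9 CPM in controls and 17.1, 25.6 and 28.7 CPM under stress (0.37 ± 0.12, adjusted p = 0.636). Aif1 was at 4.29, 5.50 and 7.27 CPM and 5.54, 6.94 and 8.57 CPM (0.37 ± 0.14, adjusted p = 0.819). In these too the upper stress libraries lay above the controls and the lower ones within them. Spi1 was at 2.66, 4.42 and 7.40 CPM in controls and 5.12, 7.38 and 9.34 CPM under stress (0.52 ± 0.20, adjusted p = 0.923). Ptprc was at 1.40, 1.80 and 2.14 CPM and 1.43, 2.54 and 3.47 CPM (0.54 ± 0.22, adjusted p = 1.0). For both, part of the stress libraries lay within the control range. Ly86 (0.43) and Lgmn (0.13) were the other members past the unadjusted threshold. Among the rest, Fcrls was at 0.38, Trem2 at 0.32, Itgam at 0.30 and Cd53 at 0.27, and Mertk at -0.18, Hpgds at -0.16 and Gpr34 at -0.12.

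The purine receptors lay on the other side of 0, and were singled out after their values were seen. P2ry12 was at 14.0, 20.02 and 27.8 CPM in controls and 14.4, 18.7 and 21.7 CPM under stress (-0.21 ± 0.18, adjusted p = 1.0). P2ry13, its neighbour on the chromosome, was at 6.12, 10.2 and 11.9 CPM and 5.33, 7.85 and 9.45 CPM (-0.26 ± 0.18, adjusted p = 1.0). Controls and stress libraries overlapped for both, and for every other member, where 0.221% of all genes were higher and 0.0613% lower without overlap. Tmem119 (-0.03), Selplg (-0.06) and Sall1 (0.02) were close to 0.

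**Figure D3:**
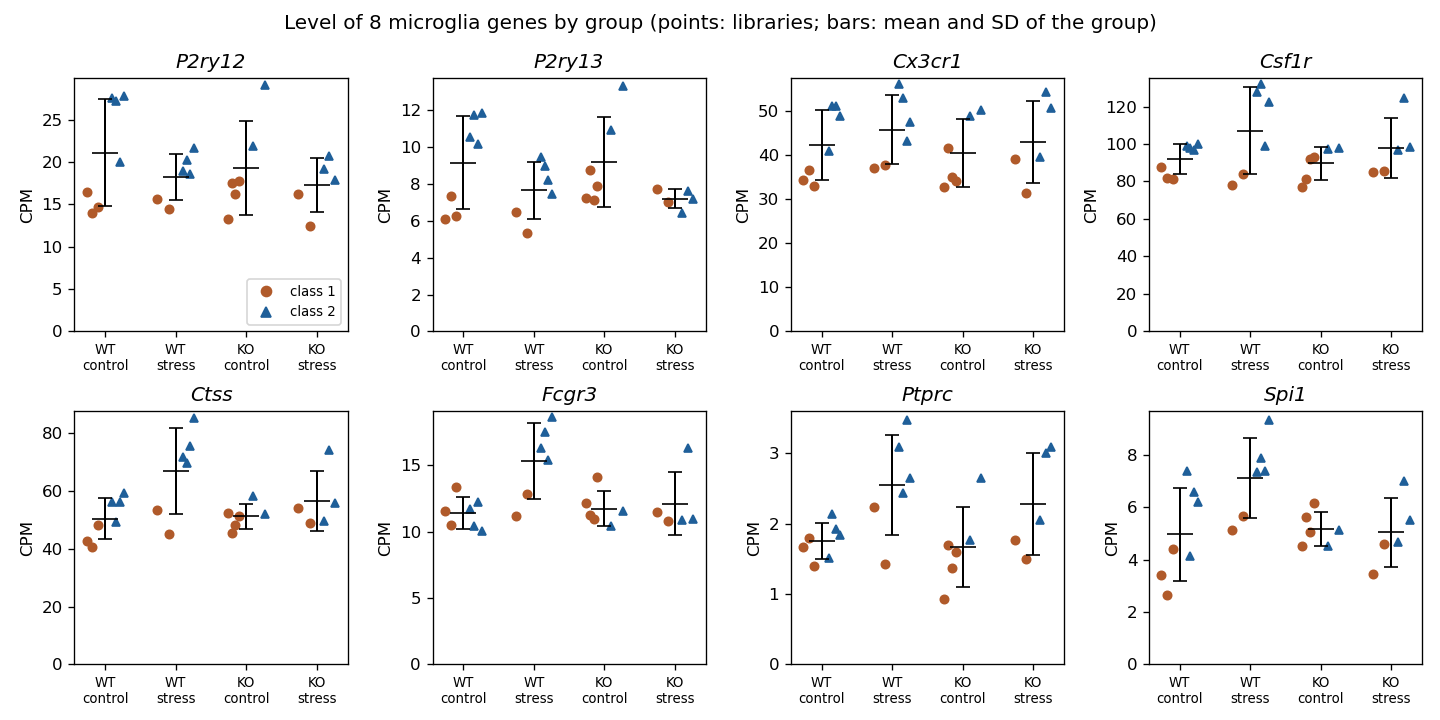
Level in CPM of 8 microglial genes in the 4 groups, 1 point per library (circles class 1, triangles class 2), with bars for the mean and SD of the group. The class 2 wild-type stress libraries lie above the class 2 wild-type controls for Ctss and Fcgr3 and below them for P2ry13.

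Because the members differed between the classes, the stress comparison in wild-type mice was repeated with class as a term and within each class. With the term, 0 members were called where 0.159% of all genes were higher, and 13 members were higher and 2 lower at an unadjusted p under 0.05, against 3.57% and 2.40% of all genes. Within class 2 (4 control and 4 stress libraries), 0 were called where 0.121% of all genes were higher, and again 13 were higher and 2 lower unadjusted, against 4.71% and 1.90%. Within class 1 (3 and 2 libraries), 0 of 34 were called, with 2 higher and 1 lower unadjusted, against 2.85% and 3.81%. The median over the members was 0.15 with the term, 0.23 within class 2 and 0.08 within class 1.

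Inside class 2 the libraries of several genes parted. Fcgr3 was at 11.7, 10.5, 12.2 and 10.1 CPM in the 4 wild-type controls and at 16.3, 17.5, 15.4 and 18.6 CPM in the 4 stress libraries. Every stress library lay above every control (0.61 ± 0.13, adjusted p = 0.109). Ctss was at 56.2, 49.4, 56.1 and 59.4 CPM in controls and at 71.7, 69.6, 75.6 and 85.3 CPM under stress, also without overlap (0.45, adjusted p = 0.187). Itgam was at 19.2, 17.2, 17.4 and 17.1 CPM and at 27.3, 20.8, 20.4 and 20.5 CPM, where replicate 3 under stress stood above the rest. Tyrobp, Fcer1g, Unc93b1, Ptprc and Cd53 also had all stress libraries above all controls, which makes 8 members, where 2.73% of all genes were higher without overlap. P2ry13 was the 1 member with the reverse order, where 1.45% of all genes were lower without overlap. Its levels were 10.6, 11.8, 10.2 and 11.9 CPM in controls and 9.45, 8.99, 8.24 and 7.46 CPM under stress (-0.38 ± 0.12, adjusted p = 0.384). P2ry12 was at 27.6, 27.3, 20.02 and 27.8 CPM and 18.9, 20.3, 18.6 and 21.7 CPM, and only control replicate 6 fell among the stress libraries (-0.37, adjusted p = 0.423).

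In class 1, 4 of 34 members lay apart in each direction, shares near those over all genes. Cx3cr1, Spi1, Apbb1ip and Aif1 had both stress libraries above all 3 controls, where 9.96% of all genes did, and Slco2b1, Mertk, Inpp5d and Hpgds had both below, where 11.3% of all genes did. There the fold change was 0.02 for Fcgr3 and 0.17 for Ctss. Whether the stress effect differed between the classes was not tested. In an alternative chosen after the data were seen, class 2 without the 3 libraries with the most thalamic transcripts, 2 members rose under stress in wild-type mice, where 0.209% of all genes did. These were Csf1r, at 0.37 ± 0.057 (adjusted p = 0.0171), and Fcgr3, at 0.65 ± 0.11 (adjusted p = 0.0218). Csf1r in class 2 was at 98.9, 97.7, 96.7 and 100.1 CPM in controls and at 128, 132, 98.9 and 122 CPM under stress, where the stress library at 98.9 CPM, replicate 5, is the one left out.

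Some markers of monocytes and neutrophils rose under stress in wild-type mice. Of the 11 tested monocyte and neutrophil markers, 3 rose by edgeR, where 0.135% of all genes did. These were the granule genes S100a8 (5.12 on the log2 scale) and S100a9 (4.31) and the neutrophil gene Retnlg (4.88). DESeq2 called 8 and limma voom 0 of the 11. The level summed over all 15 was 25.1 to 28.9 CPM in controls and 29.0 to 101 CPM under stress, without overlap although the ranges nearly met. The class 1 stress libraries were at 29.0 and 33.8 CPM and those of class 2 at 55.1 to 101 CPM. Ccr2, the defining receptor of inflammatory monocytes, was at 0 to 0.302 CPM in controls and 0 to 1.42 CPM under stress and was too low to test. Perivascular macrophage markers were at 20.4 to 30.9 and 26.2 to 33.2 CPM in sum with 0 of 8 called, and lymphocyte markers, 6 of 8 of them too low to test, at 0.444 to 1.67 and 1.22 to 2.51 CPM in sum. Several members, among them Ptprc, Itgam, Tyrobp, Fcer1g, Fcgr3 and Spi1, are also expressed by such blood cells. The part of those cells in the values above was not tested.

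In knockout mice, stress was compared over 6 control and 5 stress libraries. None of the 34 members was called by edgeR, DESeq2 or limma voom, where 0.00613% of all genes (1 gene) were higher by edgeR. At an unadjusted p under 0.05, 1 member was higher and 0 were lower, against 2.26% and 1.71% of all genes. The median was 0.10 over the members and 0.0052 over all genes, with 28 of 34 (82.4%) above 0, against 51.4%. No member's groups lacked overlap, where 0.233% of all genes were higher and 0.0674% lower without overlap.

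Ltc4s, which makes leukotriene C4 and so a lipid mediator of inflammation, was the 1 member past the unadjusted threshold. It was at 3.80, 4.47 and 4.97 CPM in controls and at 5.47, 8.62, 5.74, 6.40 and 4.14 CPM in the 5 stress libraries. All but replicate 5 lay above the controls (0.45 ± 0.20, adjusted p = 0.988), and without replicate 2, the highest, the value was 0.29. P2ry13 was at 7.13, 8.32 and 13.3 CPM in controls and at 7.75, 7.05, 6.44, 7.60 and 7.17 CPM under stress, at the low end of the controls (-0.36 ± 0.19). P2ry12 was at 13.3, 17.7 and 29.1 CPM and at 16.2, 12.5, 19.2, 20.8 and 17.9 CPM, spread through the control range (-0.16 ± 0.20). Fcgr3 was at 10.4, 11.4 and 14.1 CPM in controls and at 11.5, 10.8, 10.9, 16.3 and 10.99 CPM under stress. Only replicate 4 stood above the controls, and the fold change was 0.04 ± 0.13. Replicate 4 was also the only knockout stress library of class 2 outside the 3 with the most thalamic transcripts.

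That library stood high for other members too. Fcrls was at 8.10, 7.83, 7.92, 21.4 and 8.29 CPM under stress, and its fold change of 0.56 ± 0.32 became 0.15 without replicate 4. Ctss was at 54.0, 49.0, 49.5, 74.2 and 56.0 CPM under stress, against 45.4, 51.6 and 58.2 CPM in controls. Without replicate 4 the median over the members was 0.025 in place of 0.10. Ptprc (0.45 ± 0.25) and Sall1 (0.26 ± 0.14) were further members above 0. Each of these adjusted p-values was 0.988.

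With class as a term, the knockout stress comparison called 0 members and 0% of all genes by edgeR, with 1 member higher and 3 lower at an unadjusted p under 0.05, against 3.71% and 2.83% of all genes, and the median was 0.02. P2ry13 then stood at -0.43 ± 0.13 and P2ry12 at -0.29. Within class 2 (2 control and 3 stress libraries) P2ry13 was at 10.9 and 13.3 CPM in controls and at 6.44, 7.60 and 7.17 CPM under stress, with no overlap (-0.77 ± 0.15, adjusted p = 0.416). In these 5 libraries 3 members (Slco2b1, Lgmn and Aif1) were higher and 3 (P2ry12, P2ry13 and Cd33) lower without overlap, shares below those over all genes of 15.5% and 14.4%. Choroid plexus markers were at 29.3 to 36.5 CPM in sum in these controls and at 841 to 2192 CPM in these stress libraries, and their part in the values was not tested. The monocyte and neutrophil markers were at 26.8 to 30.1 CPM in sum in controls and 28.6 to 68.3 CPM under stress, with 0 of 11 called by edgeR, DESeq2 or limma voom and 7 higher at an unadjusted p under 0.05 by edgeR.

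**Figure D4:**
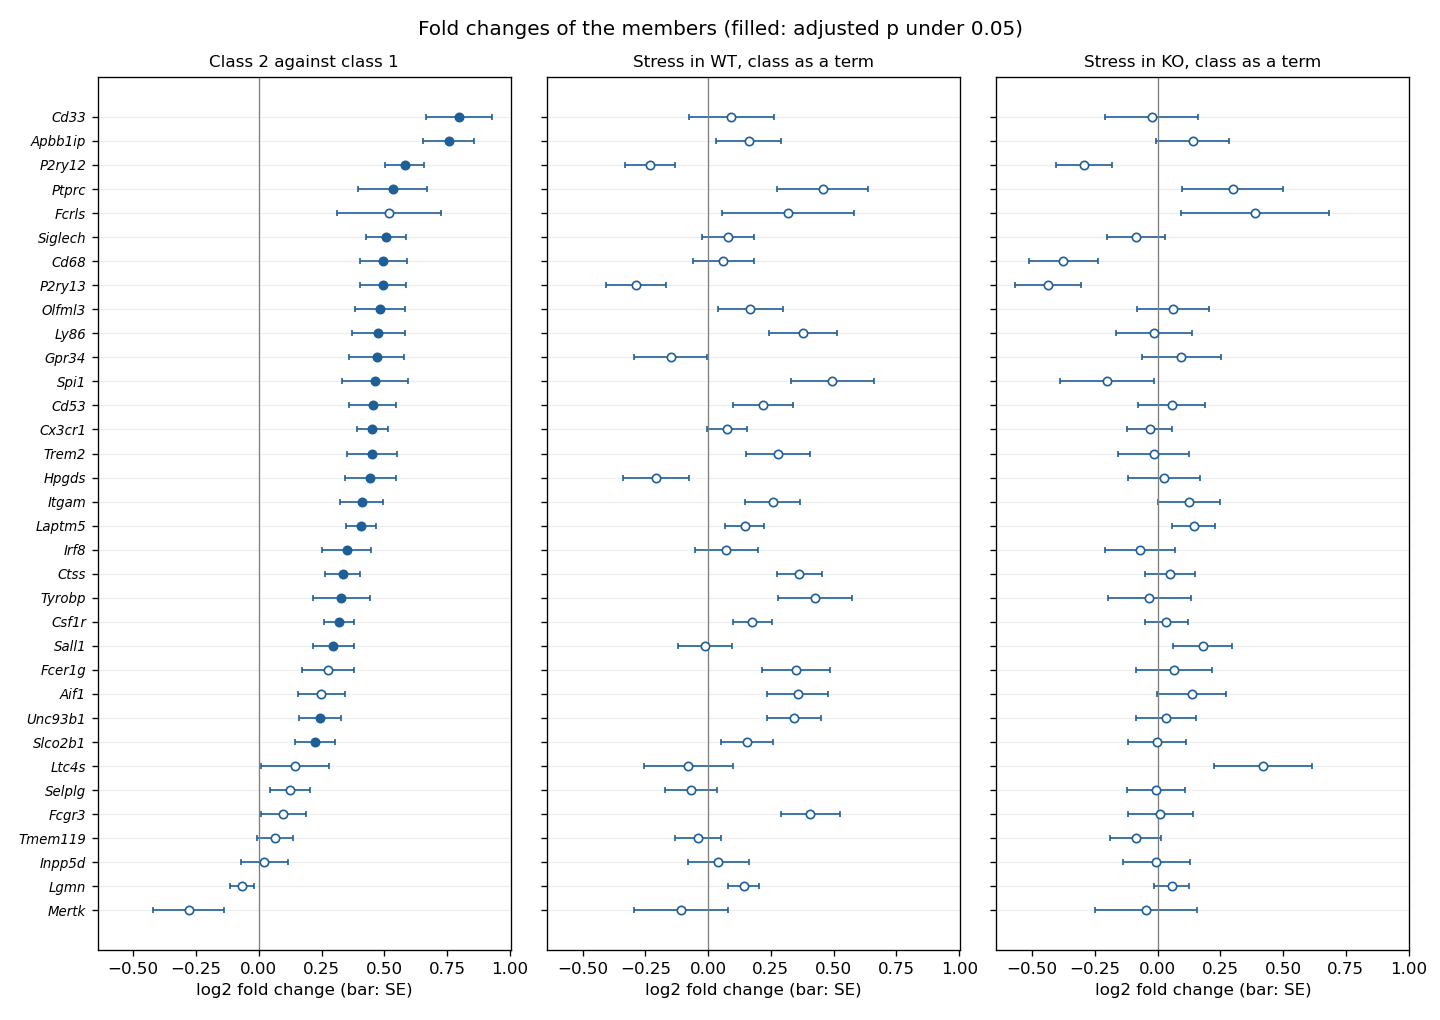
Log2 fold change of each of the 34 genes with bars of 1 standard error, between the classes (left) and under stress in wild-type (middle) and knockout mice (right), the stress panels with class as a term, genes ordered by the class difference and filled where the adjusted p was under 0.05. In the left panel 24 genes are filled, up to 0.80 for Cd33, and in the stress panels none is.

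Averaged over both genotypes, stress called 0 members by edgeR, DESeq2 and limma voom, where 0.208% of all genes were higher and 0.00613% lower by edgeR. At an unadjusted p under 0.05, 11 members were higher and 1, P2ry13, was lower, against 4.09% and 2.08% of all genes. The median was 0.18, against 0.0011 over all genes. The lowest adjusted p was 0.451, shared by Ctss (0.27 ± 0.092) and Ptprc (0.49 ± 0.17). Aif1 was at 0.29 ± 0.10, Fcgr3 at 0.23 ± 0.087, Unc93b1 at 0.23 ± 0.091, P2ry12 at -0.18 ± 0.14 and P2ry13 at -0.31 ± 0.13.

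P2ry13 was the 1 member called within class 2, and whether its change differed between the classes was not tested. Within class 2, with 6 control and 7 stress libraries, it fell by 0.58 ± 0.094 on the log2 scale (adjusted p = 0.0235), where 0.0242% of all genes fell and 0.393% rose. The 6 controls lay at 10.2 to 13.3 CPM and the 7 stress libraries at 6.44 to 9.45 CPM, without overlap. The call was kept in 9 of 13 fits that each left out 1 library. It was lost without wild-type control replicate 5, knockout control replicates 5 or 6 or knockout stress replicate 5, with an adjusted p of up to 0.181, and also without the 3 libraries with the most thalamic transcripts (-0.52, adjusted p = 0.186). Thalamus markers were at 79.4 to 170 CPM in sum in these controls and 84.3 to 620 CPM in these stress libraries. Within class 1 the value was -0.11, and with class as a term over all libraries it was -0.36 ± 0.089 (adjusted p = 0.116), where 0.184% of all genes rose and 0.00613% fell. Med12l, the gene around P2ry13, was singled out after its value was seen. It was at 4.0 to 6.4 CPM in the class 2 controls and 4.3 to 11 CPM in the class 2 stress libraries. Between the classes Med12l was at -0.51 by edgeR (adjusted p = 0.0573) and -0.52 by DESeq2 (adjusted p = 0.0246), opposite in sign to the 0.50 of P2ry13. P2ry13 shares no annotated exon with Med12l, and the part of Med12l reads in the values of P2ry13 was not tested. P2ry12 within class 2 was at -0.39 (adjusted p = 0.111). In class 2 without those 3 libraries, 3 members rose in the averaged comparison, where 0.293% of all genes did, namely Csf1r (0.36, adjusted p = 0.0107), Fcgr3 (0.61, adjusted p = 0.0213) and Ctss (0.44, adjusted p = 0.0391), although only 2 control and 1 stress library of the knockout remained there.

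The difference between genotypes in the stress effect was tested as an interaction. No member was called by edgeR, DESeq2 or limma voom, where 0% of all genes were called by edgeR, and at an unadjusted p under 0.05 there were 0 higher and 1 lower, against 1.3% and 1.05% of all genes. That member was Fcgr3, at 0.42 in wild-type and 0.04 in knockout mice, a difference of -0.38 ± 0.17 (adjusted p = 1.0). In class 2 stress libraries outside the 3 with the most thalamic transcripts, Fcgr3 was at 16.3, 17.5 and 18.6 CPM in wild-type mice. The only such knockout library, replicate 4, was also at 16.3 CPM. In those 3 it was at 15.4 CPM in wild-type and at 10.9 and 10.99 CPM in knockout mice. The part of this uneven make-up in the difference was not tested. Spi1 differed by -0.56 ± 0.30, from 0.52 to -0.04, and Ltc4s by 0.52 ± 0.27, from -0.07 to 0.45. The median over the members was -0.08. With class as a term 0 members and 0% of all genes were called, 0 members were higher and 5 lower at an unadjusted p under 0.05, against 1.68% and 1.62% of all genes, and the median was -0.14.

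Without stress, no microglial gene differed between knockout and wild-type hippocampus at the threshold. Of the 34, 0 were called by edgeR, DESeq2 or limma voom and 0 passed an unadjusted p of 0.05 by edgeR, where 0% of all genes were called and 3.02% passed unadjusted (1.66% higher and 1.36% lower). The median was -0.068, and 0.029 with class as a term. Hpgds was at 4.39, 5.34 and 7.96 CPM in wild-type and 3.59, 4.29 and 6.44 CPM in knockout controls, with overlap (-0.36 ± 0.17, adjusted p = 1.0). Fcrls (-0.41 ± 0.30), Apbb1ip (-0.31 ± 0.24), Gpr34 (-0.26 ± 0.19) and Ltc4s (-0.25 ± 0.18) were also below 0. Cx3cr1 (-0.06), Csf1r (-0.04), Tyrobp (0.00) and Siglech (0.02) were near 0.

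Under stress, no member differed between knockout and wild-type mice at the adjusted threshold, with 0 of 34 members and 0% of all genes called by edgeR and 0 members by DESeq2 or limma voom. At an unadjusted p under 0.05, 0 members were higher and 3 lower in the knockout, against 2.76% and 1.95% of all genes. Cd68 was at 7.14, 10.3 and 11.7 CPM in wild-type stress libraries and at 5.47, 7.23, 7.31, 8.77 and 6.55 CPM in knockout stress libraries, with overlap (-0.47 ± 0.19). Spi1 (-0.50 ± 0.22) and Fcgr3 (-0.34 ± 0.13) were the others, each at an adjusted p of 0.798. Tyrobp (-0.38 ± 0.19) and Ly86 (-0.38 ± 0.20) lay on the same side. The median was -0.11, with 4 of 34 members above 0, against 49.1% of all genes. Choroid plexus markers were at 841 to 2192 CPM in sum (median 1516) in knockout and 22.4 to 2272 CPM (median 69.1) in wild-type stress libraries, with 0 of 8 called. Thalamus markers were at 104 to 620 (median 421) and 84.3 to 580 CPM (median 106), with 0 of 6 called. The part of either tissue in the values above was not tested. This comparison shares its wild-type stress libraries with the stress comparison in wild-type mice.

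Genes that act with the members were read from a further list of 31 tested genes of microglial signalling. Between the classes, 7 were higher and 0 lower by edgeR, against 11.2% and 9.56% of all genes, with a median of 0.12. Among the 7 were the purine receptor P2ry6 (0.51), the integrin chain Itgb2 (0.42) and the guanine exchange factor Vav1 (0.35). DESeq2 called Mef2c lower in class 2 (-0.48, adjusted p = 0.0431). Under stress in wild-type mice 0 of 31 were called by edgeR or limma voom and 1, the complement gene C1qb, by DESeq2 (0.44, adjusted p = 0.0476). With edgeR 11 were higher at an unadjusted p under 0.05, against 2.97% of all genes, and the median was 0.21. C1qa, whose brain transcripts come largely from microglia, was at 47.6, 63.6 and 72.9 CPM in controls and 67.1, 82.6 and 107 CPM under stress, with overlap (0.45, adjusted p = 0.202).

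Of 8 ligands of microglial receptors, 2 were higher in class 2 by edgeR, where 11.2% of all genes were. These were Csf1 (0.35 ± 0.073, adjusted p = 0.00128) and Tgfb1 (0.40), and the median over the list was -0.10. DESeq2 called Gas6 lower in class 2 (-0.16, adjusted p = 0.0426). Under stress in wild-type mice 0 of the 8 ligands were called by edgeR, DESeq2 or limma voom. By edgeR 2 were higher at an unadjusted p under 0.05, against 2.97% of all genes, and the median was -0.02. Cx3cl1, the neuronal ligand of Cx3cr1, was at 903 ± 61.7 CPM (SD, n = 7) in wild-type controls and 865 ± 129 CPM (SD, n = 6) under stress. It was at 953 ± 55.4 CPM (SD, n = 6) in knockout controls and 785 ± 168 CPM (SD, n = 5) under stress, values that overlapped within their spread. The 3 libraries with the most thalamic transcripts were at 604 to 614 CPM, and the other stress libraries of both genotypes at 854 to 983 CPM. Of 14 genes typical of activated microglia, 0 were called by edgeR or limma voom under stress in wild-type mice. By edgeR 3 were higher at an unadjusted p under 0.05, against 2.97% of all genes, and the median was 0.13. DESeq2 called 1, the cholesterol hydroxylase Ch25h (2.14, adjusted p = 0.00416). Between the classes 3 of the list were higher, namely Ch25h (1.11), the lipase Lpl (0.79) and Gpnmb (0.85). The matrix protein Spp1 was lower at -1.49, where 11.2% of all genes were higher and 9.56% lower.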

How the data were processed

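RNA of 24 hippocampal libraries was read from the deposited count table, in which the authors gave whole-number read counts per gene symbol. STAR, DESeq2 and the build mm10 are named per the submitters' processing notes, with no role. The counter, annotation, strand setting and treatment of shared reads were not given in the sources used here. Even numbers made up 70.9% to 75.8% of counts from 1 to 10, as when both mates of a read pair are counted, so intervals on counts would be too narrow and none is given. Libraries were grouped by their titles. Genes kept by filterByExpr (minimum count 10) entered 1 edgeR 4.0.16 quasi-likelihood fit of 4 group means over 24 libraries (R 4.3.3, TMM scaling, robust, 20 residual degrees of freedom), with Benjamini-Hochberg adjustment over 16313 genes and a threshold of 0.05. CPM values are TMM-scaled, except those of Rn45s, Malat1, Lars2 and the summed marker lists, which are over all counts of a library. The library class, cut at 15000 CPM of Rn45s, was tested in a fit of group plus class. DESeq2 1.42.0, limma 3.58.1 voom with quality weights, other scalings and filters, the class as a term or within a class, a replicate block and leaving out libraries were alternatives. On simulated counts, the fit recovered 75% of genes changed by 1 on the log2 scale for stress in wild-type mice and 83% for the class. Smaller changes, such as those of the members in the same comparisons, were not simulated, so their recovery is not known. No libraries were duplicates of each other, with a mean chi-square per gene of at least 5.79 over 276 pairs. Gene positions are from GENCODE vM21 and promoters from RefSeq. The members and lists were chosen with earlier results of these data known, as were the classes, Malat1 and Lars2. By rule, full statistics were given for called members (the 5 largest differences for the class) and otherwise for those of lowest p, up to 8 for stress in wild-type mice, 5 for the other comparisons and 3 for the interaction, and further members were named to account for the list. The authors' normalized counts and comparison table were not used here.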

Additional observations from a re-analysis of the deposited data

Results flagged for a closer look

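Within groups of 4 to 10 libraries, 14 of 136 tests of a member in a group found its highest or lowest library far from the rest. Chance gives about 1 in 20 for a single test, but members can move together within a library and the groups mix both classes. The count of 14 therefore cannot be set against that rate. Knockout stress replicate 4 stood high for Fcrls (21.4 CPM, next library 8.29), Selplg (48.8 CPM, next 36.4), Irf8 (9.29 CPM, next 5.87), Fcer1g (13.3 CPM, next 9.18), Fcgr3 (16.3 CPM, next 11.5) and Ctss (74.2 CPM, next 56.0). In the same group, replicate 3 stood low for Inpp5d at 9.02 CPM (next 11.5). Among wild-type stress libraries, replicate 3 stood high for Fcrls at 25.8 CPM (next 12.6). Replicate 2 of that group stood low for Tyrobp at 9.99 CPM (next 16.3) and for Fcer1g at 7.78 CPM (next 11.7). Among wild-type controls, replicate 7 was high for Olfml3 at 19.4 CPM (next 12.5) and replicate 3 low for Cd53 at 3.31 CPM (next 5.59). Among knockout controls, replicate 4 was high for Selplg at 44.3 CPM (next 37.9) and replicate 5 high for Hpgds at 6.44 CPM (next 4.49).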

How the results depend on the processing

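The counts of called members for stress and genotype were 0 under every alternative scaling, filter and tool, with the replicate block, with the class as a term, within class 1 and, with all groups and no class term, in each fit that left out 1 library. In class 2 the averaged stress comparison called 1 member, and without the 3 libraries with the most thalamic transcripts it called 3 and wild-type stress called 2, both chosen after seeing the data. Within class 2, leaving out knockout stress replicate 4 called Fcgr3 in wild-type stress (adjusted p 0.0384 to 0.372 over 13 fits) and Lgmn in averaged stress (0.0414 to 0.562), and leaving out that library or wild-type control replicate 6 called P2ry12 in averaged stress (0.0415 to 0.363). The class comparison called 21 to 25 members when single libraries were left out, and 0 with the replicate block, where the median over the members was 0.25 in place of 0.41. The replicate number partly coincides with the class, so that block and class share information. Correlations between same-numbered libraries ran from -0.32 to 0.54 over 11 pairs, some of which joined different classes. They cannot show whether a number marks a shared animal, litter or day, which the labels do not say. The block left the median at 0.22 for stress in wild-type and 0.14 in knockout mice. In class 2 without those 3 libraries the sign turned for Sall1 under stress in the knockout (-0.12) and for Spi1 in the interaction (0.11). In class 1 alone it turned for Fcgr3 in averaged stress (-0.050) and for Ltc4s between control genotypes (0.14). The causes of these changes were not tested. With the class as a term, leaving out wild-type stress replicate 2 called Ctss in wild-type stress (adjusted p 0.0487 to 0.361 over the single libraries left out), and leaving out knockout stress replicate 1 called P2ry13 in averaged stress (0.0302 to 0.323). Ptprc (0.936 to 3.47 CPM) and Cd33 (1.36 to 3.90 CPM) had the fewest reads of the members, which limits their precision.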
